A study of Aedes aegypti with 5 samples.

Results

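The salivary serine proteases described here are 4 probes of the *Aedes aegypti* salivary gland oligoGEArray, out of 433 gene probes. They were chosen by symbol, namely AEA-562 and AE-782, both annotated as serine protease, AF466600, annotated as putative serine protease, and AEA-876, annotated as large trypsin. The choice was made with their values in all groups in view, so their levels are a description and no test is given for them. RNA came from salivary glands of female, pathogen-free mosquitoes of the Higgs white eye strain, and 5 groups were compared, namely unfed females and females taken 1, 3, 24 or 48 hours after a blood meal (hpf, hours post feeding). All females, unfed ones included, were of the same age, had never taken blood before and had been starved, and the fed ones engorged on a BALB/c mouse. Each group was 1 RNA pool, and the glands of several fully fed mosquitoes made up each fed pool. Every pool was hybridized to 3 nylon arrays, 15 in all, which are technical replicates.

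Serine proteases cut peptide bonds with an active-site serine held beside a histidine and an aspartate, and trypsins cut after lysine or arginine. In blood feeding insects the best known members are the midgut trypsins and chymotrypsins that digest the blood meal, while other members act in the haemolymph. There, proteases with a Clip domain activate one another in chains that end in Toll signalling or in the activation of prophenoloxidase, the enzyme of melanin formation. Salivary glands also make serine proteases with a secretion signal, and for most of those of *Aedes aegypti* the substrate is not known. Transcript levels say nothing of whether a protease is active, since most are made as inactive zymogens.

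The level given throughout is the normalized intensity. For it, the mean of 22 empty spots is subtracted from each spot, and the result is put relative to the average of the actin and ribosomal protein S5 spots, corrected in the same way, so that 1 is the level of the reference. The limit for calling a spot above the empty spots was 2 SD over their mean, and raw intensities of 60000 or more were taken as saturated. Between 121 and 162 gene probes were above the empty spots on an array and 33 to 64 were saturated. S5 itself was saturated on 7 of 15 arrays. These were replicates 2 and 3 in unfed glands and at 3 hpf, and replicate 3 at 1, 24 and 48 hpf. Ratios with S5 in the reference, or as the only reference, carry this ceiling unevenly between groups. Actin, which was not saturated, made up 14.1% to 38.9% of the reference in unfed glands, 7.05% to 17.6% at 1 hpf, 3.21% to 10.7% at 3 hpf, 1.76% to 7.63% at 24 hpf and 1.56% to 5.90% at 48 hpf. Among 15 probes for known saliva proteins such as apyrase, D7 proteins and amylase, 12 were above the empty spots on every array and 7 were saturated on every one. No probe carried a midgut, fat body or haemocyte marker name, and the only muscle probe was above the empty spots on 0 arrays. In such pooled glands fewer secretory cells and less RNA per cell cannot be told apart.

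The ratios of the 4 probes to unfed glands lay on different sides of 1. At 1 hpf AE-782 was at least 2-fold up, which makes 1 of 4 where 4.85% of all 433 probes were, and AEA-562 was at most 0.5-fold, where 9.24% of all probes were. The same probes passed these limits at 3 hpf, with 12.5% of all probes at least 2-fold up and 8.55% at most 0.5-fold, and at 24 hpf, with 5.77% and 16.9%. At 48 hpf 0 of the 4 were at least 2-fold up, where 3% of all probes were, and both AEA-562 and AEA-876 were at most 0.5-fold, where 21.7% were. Arrays of the fed group lay all above the unfed arrays for AF466600 alone at 1 hpf (4.85% of all probes), for AF466600 and AE-782 at 3 hpf (5.54%) and at 24 hpf (11.1%), and for 0 of the 4 at 48 hpf (12.9%). They lay all below the unfed arrays for AEA-562 at each of the 4 times, where 6.47%, 2.54%, 10.9% and 13.6% of all probes did so in time order. In the same order the 4 probes had median ratios of 1.55, 1.10, 1.28 and 0.655, beside 1.20, 1.27, 0.935 and 0.727 over all probes with a ratio. These counts follow from the choice of the probes and are given as their description. For AEA-562 the ratios behind them use fed spots that were not above the empty spots, and its lower bound of the fold, given with its values, reaches 2 only at 24 and 48 hpf. AF466600 was saturated on 2 of 3 unfed arrays, on 3 of 3 at 1 and 3 hpf and on 2 of 3 at 24 hpf. Its place above the unfed arrays at these times is thus no measured fold between the groups. On replicate 1 neither the unfed nor the 24 hpf spot was saturated, and there its normalized intensity was 2.16 times the unfed one.

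**Figure D1:**
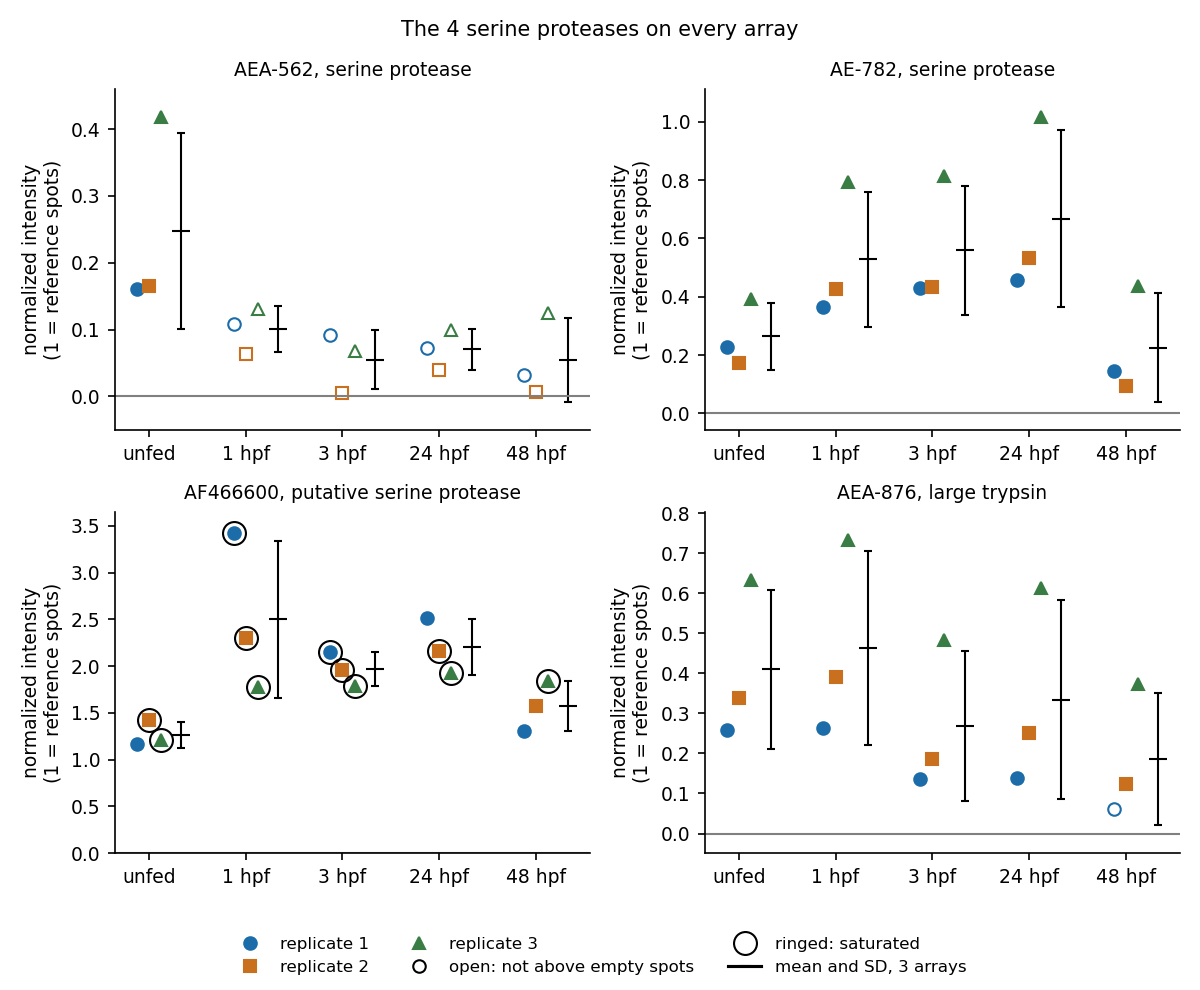
Normalized intensity (vertical axis, 1 is the level of the reference spots) of the 4 serine proteases on each of 15 arrays, by group. Symbols stand for the array's replicate number, open symbols for spots not above the empty spots, rings for saturated spots, and bars for the mean and SD of 3 arrays. AEA-562 lay lower on all 12 fed arrays than on any unfed array, AE-782 was highest at 24 hpf, AF466600 was ringed on 11 arrays, and the groups of AEA-876 overlapped.

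AEA-562, a serine protease at position 29 of the array (gi 94468658), was above the empty spots in unfed glands only. Its normalized intensity on replicates 1, 2 and 3 was 0.161, 0.166 and 0.417 in unfed glands. At 1 hpf the same replicates gave 0.109, 0.0639 and 0.130, and at 3 hpf 0.0925, 0.00560 and 0.0675. At 24 hpf it was 0.0727, 0.0390 and 0.100, and at 48 hpf 0.0315, 0.00678 and 0.125. All 3 unfed arrays were above the empty spots and 0 of the 12 fed arrays were, and every fed array was lower than every unfed array. The fed levels are therefore only bounds. The mean was 0.248 ± 0.147 in unfed glands and 0.101 ± 0.0339, 0.0552 ± 0.0447, 0.0706 ± 0.0306 and 0.0544 ± 0.0623 at 1, 3, 24 and 48 hpf (SD, n = 3 arrays each).

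As a bound, the transcript was at least 1.46-fold lower at 1 hpf than in unfed glands, at least 1.79-fold at 3 hpf, at least 2.88-fold at 24 hpf and at least 2.23-fold at 48 hpf. For this bound each fed array entered with its own signal or with the dimmest signal that passed the empty spot limit on it, whichever was higher, and means were taken in log2. Measured ratios of the means were 0.408, 0.223, 0.285 and 0.219 at 1, 3, 24 and 48 hpf. These ratios rest on fed spots not above the empty ones and are not measured folds. Unfed glands had the highest mean, apart from that of 1 hpf by 0.147, as much as the SD of the unfed arrays. The fed times overlapped, and since none was above the empty spots they have no order among themselves. Of the unfed arrays, replicate 3 was more than 2-fold brighter than the other two. Without it the ratios were 0.619, 0.338, 0.432 and 0.333 at 1, 3, 24 and 48 hpf, so that 1 hpf was no longer at most 0.5-fold. With replicate 3 left out of both groups it was 0.530 at 1 hpf. Without replicate 3 of 48 hpf the ratio at that time was 0.0771, and without replicate 1 of 3 hpf it was 0.147 at 3 hpf.

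AE-782, the other probe annotated as serine protease (position 37, gi 94468616), was the only one of the 4 that was at least 2-fold up at any time in these normalized values. In unfed glands its normalized intensity was 0.227, 0.172 and 0.394 on replicates 1, 2 and 3. At 1 hpf it was 0.366, 0.425 and 0.793, at 3 hpf 0.429, 0.433 and 0.816, and at 24 hpf 0.457, 0.532 and 1.02. At 48 hpf it was 0.147, 0.0926 and 0.438. Every array at 3 and 24 hpf was higher than every unfed array, whereas replicate 1 at 1 hpf lay under replicate 3 of the unfed glands, and 48 hpf overlapped unfed glands on both sides. Replicate 3 was the highest of its group in 5 of 5 groups, and each array at 1, 3 and 24 hpf was higher than the unfed array of the same number.

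Mean levels of AE-782 were 0.264 ± 0.116 in unfed glands and 0.528 ± 0.231, 0.559 ± 0.222, 0.668 ± 0.303 and 0.226 ± 0.186 at 1, 3, 24 and 48 hpf (SD, n = 3 arrays each). The ratios to unfed glands were 2.00, 2.12, 2.53 and 0.855. Over the same-numbered arrays the ratio lay between 1.61 and 2.48 at 1 hpf, 1.89 and 2.52 at 3 hpf, 2.01 and 3.10 at 24 hpf and 0.540 and 1.11 at 48 hpf. The order of the means was 24, 3 and 1 hpf, then unfed glands and 48 hpf, and each neighbour in it overlapped with the next. With the same replicate number left out of both groups, the ratio was 1.87 to 2.16 at 1 hpf, 2.01 to 2.21 at 3 hpf, 2.37 to 2.74 at 24 hpf and 0.600 to 0.942 at 48 hpf, so that only 1 hpf crossed the 2-fold limit. At 24 hpf the ratio could not cross it, since all 3 same-numbered quotients lay above 2. Left out singly, an array leaves its same-numbered partner in the other group. Without replicate 3 of the fed group the ratio was 1.50, 1.63, 1.87 and 0.453 at 1, 3, 24 and 48 hpf. Without unfed replicate 1 it was 1.87 at 1 hpf and 1.98 at 3 hpf, and without unfed replicate 2 it was 1.70 and 1.80. At 48 hpf the ratio passed 1 without replicate 1 (1.01) or replicate 2 (1.11) of that time or without unfed replicate 3 (1.13). The ends of that order stood apart, with 0.457 as the lowest array at 24 hpf and 0.438 as the highest at 48 hpf. With S5 alone as the reference the ratios of AE-782 were 1.60, 1.60, 1.86 and 0.626 at 1, 3, 24 and 48 hpf. On that reference it was at least 2-fold up at no time. After quantile normalization its ratios were 1.63, 1.98, 2.88 and 1.11, and with each array divided by its median 2.43, 1.87, 3.95 and 2.89.

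The deposited average of AE-782 was not the mean of its 3 arrays at 1 and 48 hpf. At 1 hpf the average was 0.79, where the arrays gave 0.528, and at 48 hpf it was 0.44, where they gave 0.226. At 2 decimals both averages equal replicate 3 alone, which was the brightest array. Across the array 12 of 2175 deposited averages differed from the mean of their arrays, in 5 probes. The deposited ratios follow these averages. They are 2.99 at 1 hpf and 1.67 at 48 hpf, where the means of the arrays gave 2.00 and 0.855, and the value at 48 hpf thereby lies above unfed glands in place of below them.

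The AE-782 spot also stood little above its surroundings. Its raw intensity over the local background around the spot had a median of 1.11 over the 15 arrays (0.843 to 1.60), and the spot was at or below that background on 3 arrays. Of 86 probes above the empty spots and below saturation on at least 8 arrays, 24 had a lower median, and the median over the 86 was 1.85. Amylase and alpha-glucosidase, the sugar-digesting enzymes at the next positions 38 and 39, were saturated on 15 of 15 arrays. The local background of AE-782 itself was 6210 to 16024 in unfed glands, 8916 to 27681 at 1 hpf, 14900 to 23064 at 3 hpf, 13210 to 32666 at 24 hpf and 5084 to 20033 at 48 hpf. It moved with the spot, and its part in the ratios was not tested. With the local background subtracted in place of the empty spots the ratio was 0.595 at 1 hpf, 1.85 at 3 hpf and 0.799 at 24 hpf, and the mean at 48 hpf was below 0.

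**Figure D2:**
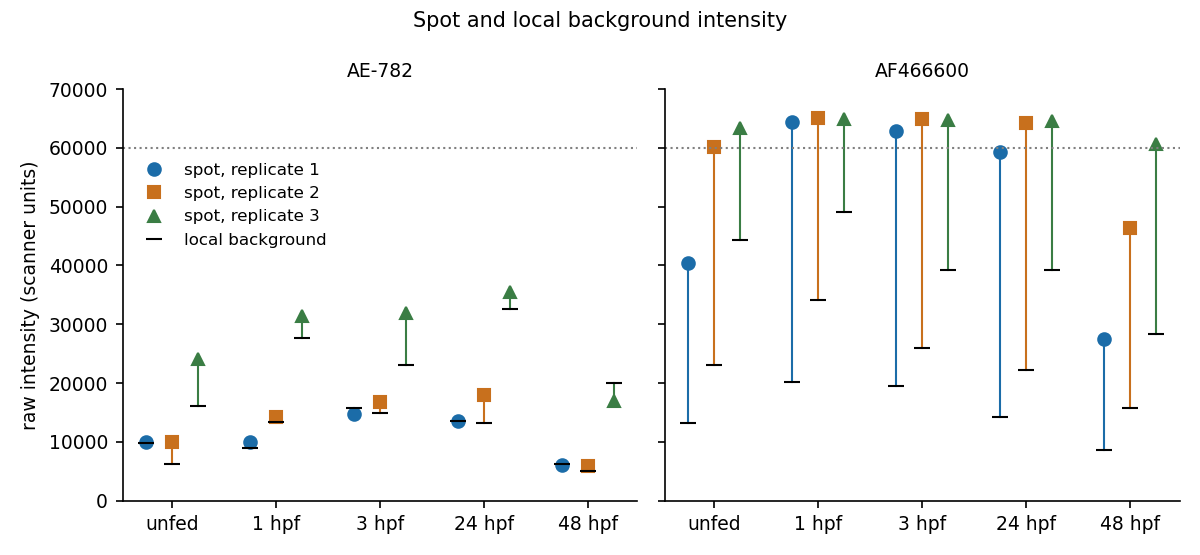
Raw intensity in scanner units (vertical axis) of the spot and of the local background around it (black dashes), on each array of AE-782 (left) and AF466600 (right), by group. Symbols stand for the replicate number and the dotted line for the intensity of 60000 taken as saturated. AE-782 reached at most 1.60 times its local background, and AF466600 was at or above the dotted line on 11 of 15 arrays.

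AF466600, the putative serine protease at position 31 (gi 18568306), was saturated on 11 of 15 arrays. Its raw intensity was 40482, 60057 and 63430 in unfed glands on replicates 1, 2 and 3. At 1 hpf it was 64442, 65075 and 64902, at 3 hpf 62824, 64852 and 64762, at 24 hpf 59254, 64160 and 64489, and at 48 hpf 27568, 46292 and 60575. Saturation thus held for 2 of 3 arrays in unfed glands, 3 of 3 at 1 and 3 hpf, 2 of 3 at 24 hpf and 1 of 3 at 48 hpf. Since the unfed glands were saturated in part, no lower bound of the fold between the group means holds on these arrays.

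After normalization AF466600 was 1.16, 1.43 and 1.21 in unfed glands. It was 3.42, 2.30 and 1.77 at 1 hpf, 2.15, 1.96 and 1.79 at 3 hpf, 2.52, 2.16 and 1.92 at 24 hpf and 1.30, 1.57 and 1.85 at 48 hpf. All arrays at 1, 3 and 24 hpf were higher than all unfed arrays, and those at 48 hpf overlapped with them. The means were 1.27 ± 0.141 in unfed glands and 2.50 ± 0.840, 1.97 ± 0.178, 2.20 ± 0.300 and 1.57 ± 0.272 at 1, 3, 24 and 48 hpf (SD, n = 3 arrays each), with ratios of 1.97, 1.55, 1.74 and 1.24 to unfed glands. The means carry the ceiling of the saturated arrays, so that these ratios are no measured folds and the times have no order by them.

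Replicate 1 was the only one on which the unfed spot was not saturated. There the normalized intensity was 2.94 times the unfed one at 1 hpf, 1.84 times at 3 hpf, 2.16 times at 24 hpf and 1.12 times at 48 hpf, and the 1 and 3 hpf spots were at the ceiling. A trypsin-like salivary protein at the next position, AE-191, was saturated on 15 of 15 arrays, and its normalized intensity was nevertheless 1.61, 1.28, 1.47 and 1.59 times that of unfed glands at 1, 3, 24 and 48 hpf. For such a spot the quotient is set by the reference. With S5 alone as the reference the ratios of AF466600 were 1.60, 1.21, 1.32 and 0.941, so that the direction at 48 hpf turned.

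AEA-876, the large trypsin at position 33 (gi 94468664), had groups that overlapped throughout. In unfed glands it was 0.258, 0.338 and 0.634 on replicates 1, 2 and 3. The arrays gave 0.264, 0.392 and 0.732 at 1 hpf, 0.136, 0.185 and 0.483 at 3 hpf, 0.137, 0.252 and 0.614 at 24 hpf and 0.0622, 0.124 and 0.374 at 48 hpf. It was above the empty spots on 14 of 15 arrays, replicate 1 at 48 hpf being the exception, and replicate 3 was the highest in 5 of 5 groups. The lowest array of the highest group, 0.264 at 1 hpf, was under the highest array of the lowest, 0.374 at 48 hpf.

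Set against the unfed array of the same number, AEA-876 ran the same way on all 3 arrays at each time. The quotients were 1.02 to 1.16 at 1 hpf, 0.527 to 0.762 at 3 hpf, 0.533 to 0.968 at 24 hpf and 0.242 to 0.589 at 48 hpf. Group means were 0.410 ± 0.198 in unfed glands and 0.463 ± 0.242, 0.268 ± 0.188, 0.335 ± 0.249 and 0.187 ± 0.165 at 1, 3, 24 and 48 hpf (SD, n = 3 arrays each). The ratios of the means were 1.13, 0.654, 0.816 and 0.456, and the differences at 1, 3 and 24 hpf were smaller than the larger SD of their groups while that at 48 hpf was not. With the same replicate number left out of both groups, the ratio was 1.10 to 1.16 at 1 hpf, 0.539 to 0.694 at 3 hpf, 0.654 to 0.891 at 24 hpf and 0.313 to 0.512 at 48 hpf. No direction could turn in this way, since the 3 quotients of each time lay on the same side of 1. Leaving out single arrays, whose partners then stayed in the other group, turned the direction at 1 hpf (0.800 without its replicate 3, 0.952 without unfed replicate 1) and at 24 hpf (1.06 without its replicate 1, 1.12 without unfed replicate 3). Without replicate 3 of the fed group the ratio was 0.392 at 3 hpf, 0.475 at 24 hpf and 0.228 at 48 hpf. The value at 48 hpf was no longer at most 0.5-fold without its replicate 1 (0.607) or 2 (0.532) or without unfed replicate 3 (0.627). With S5 alone as the reference the ratios were 0.896, 0.491, 0.597 and 0.330, which puts 1 hpf below unfed glands and 3 hpf past the 0.5-fold limit. With each array divided by its median they were 1.28, 0.501, 1.05 and 1.67, which puts 24 and 48 hpf above unfed glands.

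**Figure D3:**
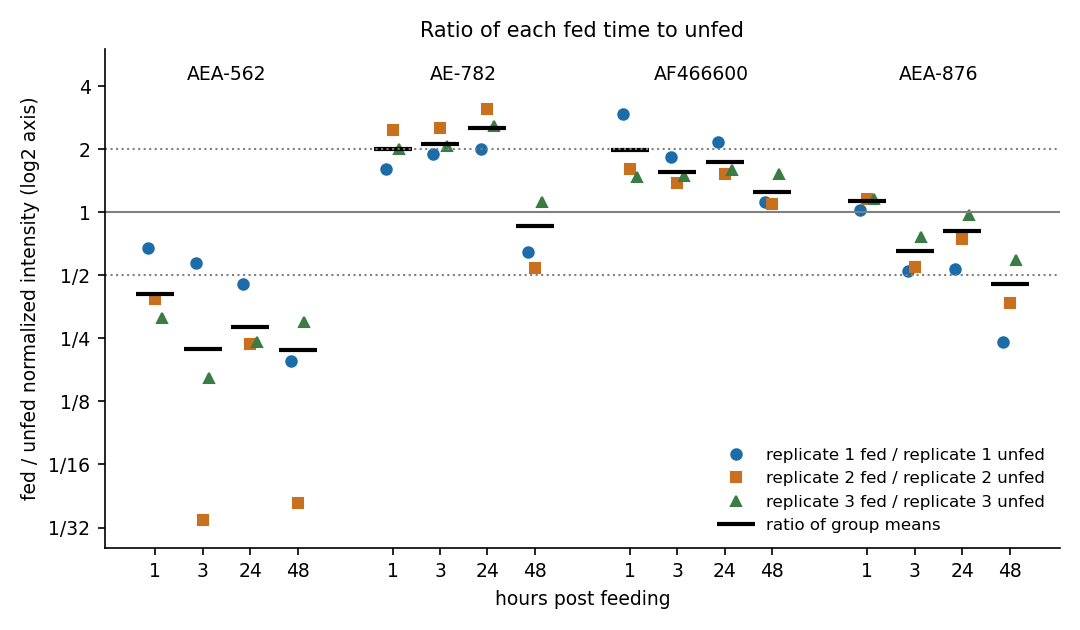
Ratio of the normalized intensity of fed to unfed glands (vertical axis, log2 scale) of each of the 4 probes at 1, 3, 24 and 48 hpf. Symbols give the ratio of arrays with the same replicate number, black bars the ratio of the group means, and dotted lines the limits of 2-fold and 0.5-fold. AEA-562 lay below 1 on all 12 pairs, AE-782 above 1 on all pairs up to 24 hpf, AF466600 above 1 on all 12 pairs, and AEA-876 above 1 at 1 hpf and below 1 at the later times.

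The 4 probes did not share 1 time course. Over the 15 arrays Pearson's r of the log2 levels was 0.64 between AE-782 and AEA-876, 0.60 between AEA-562 and AEA-876 and 0.41 between AE-782 and AF466600. It was 0.13 between AEA-562 and AE-782, -0.02 between AF466600 and AEA-876 and -0.34 between AEA-562 and AF466600. All probes of an array share its hybridization and its reference, and the spread of the replicates enters these values.

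Among probes well measured on at least 8 arrays, the time course most like that of AEA-562 was that of a putative secreted peptide, AET-3925 (Pearson's r = 0.87 over 15 arrays, where the median over 85 probes was 0.33), followed by a putative mucin, AE-329 (0.80), and a possible mucin, AE-922 (0.78). Since AEA-562 was above the empty spots on only 3 of 15 arrays, these values rest mostly on spots at that level. Mucins are heavily glycosylated proteins of secretions. AET-3925 had ratios to unfed glands of 1.00, 0.385, 0.465 and 0.391 at 1, 3, 24 and 48 hpf, so that it differed from AEA-562 at 1 hpf. The ratios of AE-329 were 0.740, 0.250, 0.243 and 0.526 at 1, 3, 24 and 48 hpf. Closest to AE-782 were the D7s3 allele AE-182 (0.91, median over 84 probes 0.52), of the D7 family that binds small host mediators, the mucin-like peritrophin AE-466 (0.87) and the putative secreted protein AET-3713 (0.84). AE-182 had ratios of 1.84, 2.41, 1.58 and 1.01 at the 4 times.

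For AF466600 the likeness was weaker, and most of its values were at the ceiling. Defensin A1 (S82860), an antimicrobial peptide, had r = 0.74 (median over 85 probes -0.01), the angiopoietin-like protein AE-6349 had 0.71 and the antimicrobial peptide gambicin (AF466602) had 0.69. AEA-876 was most like AET-316 of the 14-3-3 family of adaptor proteins (0.93, median over 84 probes 0.67), protein disulfide-isomerase AET-2353 (0.92), which forms disulfide bonds in the endoplasmic reticulum, and the putative salivary protein AE-236 (0.89). AET-316 had ratios of 1.16, 0.924, 0.701 and 0.376 at 1, 3, 24 and 48 hpf. AET-2353 had 0.564, 0.621, 0.634 and 0.386, and lay below unfed glands at 1 hpf, where AEA-876 lay above them.

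Another 4 probes of the array carried a serine protease in their description, and 2 were annotated as prophenoloxidase activators, which are serine proteases as well. They fill positions 29 to 37 together with the 4 above, apart from the double serine protease AEA-1256, which was above the empty spots on 0 of 15 arrays. In limma, fitted over all probes with Benjamini-Hochberg adjustment, 0 of the 16 tests of the other 4 serine proteases passed in either direction, although 5 were higher and 0 lower at an unadjusted p under 0.05, where 9.2% of the 1728 tests of all probes were higher and 3.47% lower. These 5 were AET-6559 at 1 and 3 hpf, AE-191 at 1 and 48 hpf and AE-226 at 48 hpf. The tests of AEA-1256 could not pass, since it lay at the floor set for the fit on every array. AE-191 was saturated on 15 of 15 arrays, so that its tests compare spots at the ceiling. The shares over all probes include 156 probes at the floor everywhere, which could not pass either. Over all 432 probes tested, 0.926%, 1.16%, 0.926% and 1.16% passed as higher at 1, 3, 24 and 48 hpf. With the replicate number as a block 6 of the 16 passed as higher, where 17.4%, 16%, 13.4% and 11.8% of all probes did, and 0 as lower, where 4.86%, 5.56%, 10.4% and 13.4% did. The volcano rule of the methods, which joins a p-value with the 2-fold limit, called 0. As the arrays of a group come from 1 pool, these p-values measure the spread between arrays and not between mosquitoes.

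The Clip-domain serine protease AET-6559, of the type that acts in the haemolymph chains, had its highest means at 1 and 3 hpf and its lowest at 48 hpf. In unfed glands it was 0.136, 0.0351 and 0.0832 on replicates 1, 2 and 3, with only replicate 1 above the empty spots. It was 0.145, 0.158 and 0.332 at 1 hpf, 0.173, 0.119 and 0.338 at 3 hpf and 0.0819, 0.0728 and 0.192 at 24 hpf, above the empty spots on all of these arrays, and 0.0594, 0.00746 and 0.0673 at 48 hpf, above them on 0. The arrays at 1 hpf were all higher than the unfed ones, and the other times overlapped with unfed glands. In raw intensity replicate 1 was lower at 1 hpf (5960) than in unfed glands (7100), while replicates 2 and 3 were brighter. The ratios of the normalized means were 2.50, 2.48, 1.36 and 0.528 at 1, 3, 24 and 48 hpf. The log2 difference from unfed glands was 1.32 (SE 0.53) at 1 hpf, with a limma adjusted p = 0.251, and 1.28 (SE 0.53) at 3 hpf, with an adjusted p = 0.549. With the replicate block the limma adjusted p was 0.0156 at 1 hpf and 0.0295 at 3 hpf, so that the call rests on the block.

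The chymotrypsin-like enzyme AE-226 (position 30) was saturated on 7 of 15 arrays. Replicates 1, 2 and 3 gave 1.38, 1.48 and 1.21 in unfed glands. They gave 2.13, 2.13 and 1.72 at 1 hpf, 0.604, 1.05 and 1.50 at 3 hpf, 2.05, 2.03 and 1.87 at 24 hpf and 2.28, 1.98 and 1.94 at 48 hpf. It stood above all unfed arrays at 1, 24 and 48 hpf but not at 3 hpf, the only time with 0 saturated arrays, where 2 of its 3 arrays were below all unfed ones. The raw intensity did not rise in this way. On replicates 1, 2 and 3 it was 47488, 62007 and 63735 in unfed glands. It was lower on each at 1 hpf (41427, 60260 and 63268) and at 48 hpf (45808, 57607 and 63646), and at 24 hpf only replicate 1 was brighter than its unfed array. The higher levels of AE-226 therefore hold relative to the reference only. The limma adjusted p was 0.302, 0.708, 0.332 and 0.252 at 1, 3, 24 and 48 hpf. After quantile normalization limma called it lower at 3 hpf and higher at 24 and 48 hpf, but 2 of 3 unfed arrays were saturated, so that the size of these differences is not measured. The other 4 block calls were those of the trypsin-like AE-191, for which no fold is measured since all of its arrays were saturated.

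**Figure D4:**
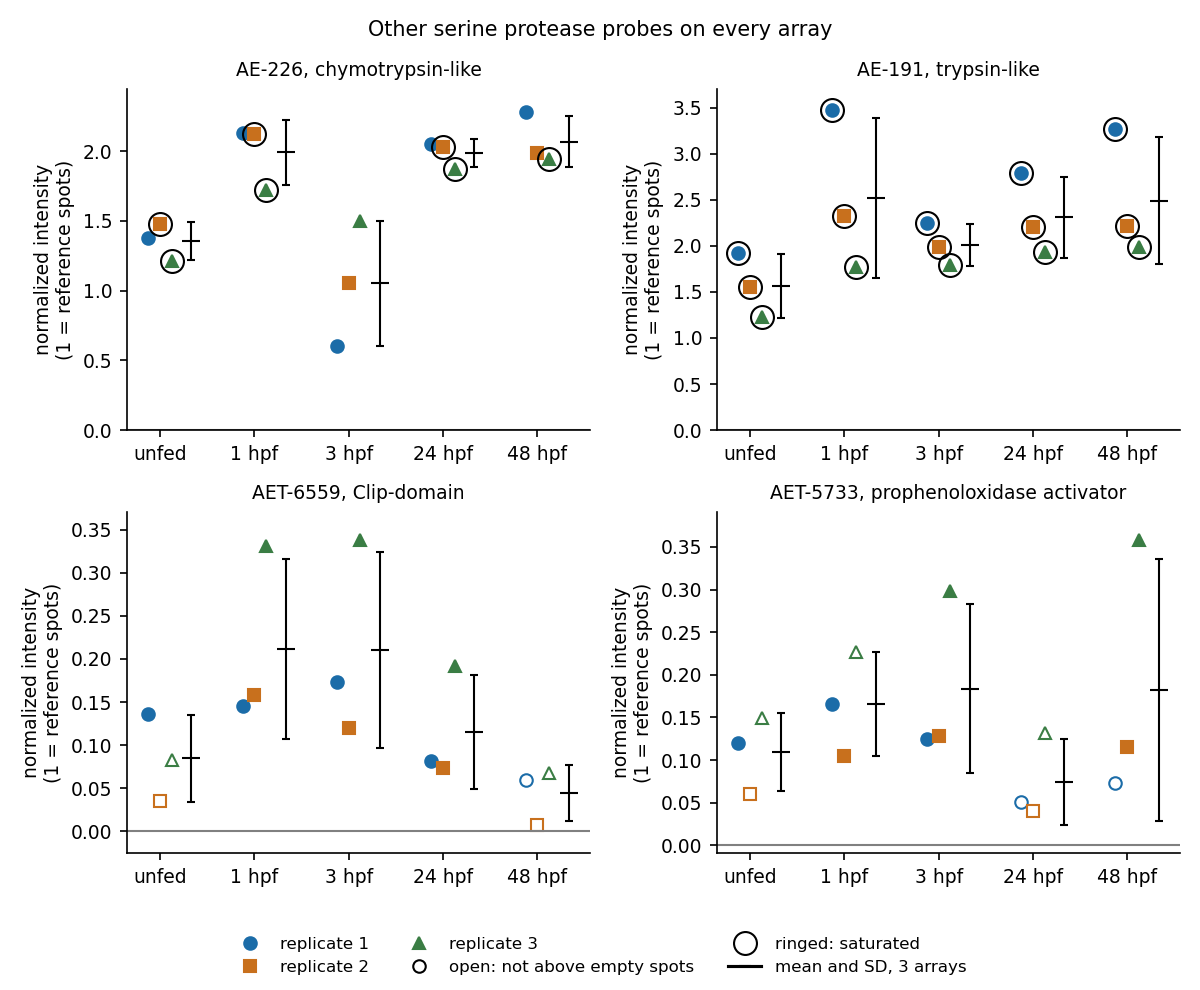
Normalized intensity (vertical axis, 1 is the level of the reference spots) of AE-226, AE-191, AET-6559 and AET-5733 on each of 15 arrays, by group, with replicate numbers as symbols, open symbols for spots not above the empty spots, rings for saturated spots and bars for the mean and SD of 3 arrays. AE-226 was lowest at 3 hpf, AE-191 was ringed throughout, and AET-6559 was highest at 1 and 3 hpf.

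The prophenoloxidase activators AET-5733 (position 35) and AF466614 (position 34) were dim, above the empty spots on 8 and 4 of 15 arrays. Their spots were at or below the local background on 6 and 14 of 15 arrays. None of their 8 tests passed in limma, with 0 at an unadjusted p under 0.05, nor with the replicate block, where 1 was higher and 1 lower at an unadjusted p under 0.05. Of 12 tests of 3 other peptidases 0 passed in limma, with 1 lower at an unadjusted p under 0.05, and 3 passed as lower with the replicate block, where 10.4% of all probes did at 24 hpf and 13.4% at 48 hpf. These were carboxypeptidase B (AY590494), which trims peptides from their end, at 24 hpf and a lysosomal aspartic protease (M95187) at 24 and 48 hpf. Of 20 tests of 5 probes drawn as protease inhibitors by keyword alone, 1 passed in limma, where 0.694% of all probes were lower at 48 hpf. It was the Kazal-type peptide AET-1428, which was at least 2.73-fold lower at 48 hpf (limma adjusted p = 0.0145). With the replicate block it was lower at all 4 times. The salivary serpin AET-7393, saturated on all but 1 of 15 arrays, passed as higher at all 4 times with the block. No fold is measured for AET-7393 at 1, 3 and 24 hpf, since both groups were saturated on every array. At 48 hpf all of its unfed arrays were saturated. The serpin AF466599 passed as higher at 1 hpf with the block (limma adjusted p = 0.00754, 0.251 without it), with no fold measured there because both groups were saturated.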

How the data were processed

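Biotin-labelled cRNA of each pool was hybridized to custom nylon arrays with 480 positions, of which 435 carry gene probes (433 distinct) and 22 are empty. The authors quantified spots with the GEArray Expression Analysis suite and deposited, on 1 sheet, the raw intensity and local background of each spot and, on another, the normalized values. These normalized values are ratios of a spot to the mean of the actin (position 411) and ribosomal protein S5 (position 424) spots after subtraction of the empty spots, and were recomputed to within 0.000129. The methods name RpL5 as the reference, and the sheet's second reference spot is described as S5. The deposited series matrix, taken as a score, holds means divided by the unfed mean and was used as an alternative only. Sheets with the authors' fold changes and p-values were not used.

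Ratios are those of means over 3 arrays, the limits of 2 and 0.5 are those of the methods, and the number of arrays limits the precision. For the tests, log2 values with a floor of 0.0431, the dimmest value that passed the empty spot limit, were fitted with limma 3.58.1 in R 4.3.3 over all 15 arrays, each fed group against unfed, and adjusted by Benjamini and Hochberg over 432 probes without S5. The 156 probes at the floor everywhere were counted as not passing. The fit was also run on simulated data with independent noise on each array. Same-numbered arrays deviated together (30 pairs, 168 probes, correlations 0.533 to 0.892), and a second fit, blocked on replicate number, is given where it changes a call. The simulated data held no such shared deviation, so that they cannot decide between the fit with and without the block.

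The members and lists were chosen with earlier results of these data known. Serine proteases (8), other peptidases (3) and protease inhibitors (5) were drawn by description keyword, and each serine protease that passed the empty spot limit on 2 or more arrays of any group was named. The 2 prophenoloxidase activators, which the keywords miss, were added after the data were seen, and the genes named in the other lists were chosen after their values were seen. For each member the 3 probes with the highest correlation were named. Of 10 identifiers 0 stand in the RefSeq table at hand, so that no chromosomal position is given.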

Additional observations from a re-analysis of the deposited data

Results flagged for a closer look

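In 8 cases every array of 1 fed time was higher than the unfed array of the same number and every array of a later time was lower. The difference between the times was not tested in any of them, and all contrasts share the unfed arrays. The share of all probes with such a pattern was not counted, so that the number of cases is a description only. The large trypsin AEA-876 had a ratio to unfed glands of 1.13 at 1 hpf, beside 0.654 at 3 hpf, 0.816 at 24 hpf and 0.456 at 48 hpf, which makes 3 cases. Its quotients at 1 hpf were only 1.02 to 1.16, and with S5 alone as the reference its ratio there was 0.896. With each array divided by its median it had 1.05 at 24 hpf and 1.67 at 48 hpf. The Clip-domain serine protease AET-6559 had 2.50 at 1 hpf and 2.48 at 3 hpf, beside 0.528 at 48 hpf, where none of its arrays was above the empty spots, as against 1 of 3 unfed arrays. For the prophenoloxidase activator AET-5733 the ratios were 1.51 at 1 hpf and 1.67 at 3 hpf, beside 0.677 at 24 hpf, where 0 of 3 arrays were above the empty spots, as against 1 of 3 unfed arrays. The other activator, AF466614, had 1.81 at 3 hpf, with 1 array above the empty spots, beside 0.187 at 48 hpf, with 0. On that 3 hpf array, replicate 3, the raw spot of 14220 was under its local background of 18401. The unfed arrays of AF466614 were above the empty spots on 0 of 3, so that no fold is measured at 48 hpf and the case rests on spots at the level of the empty ones.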

How the results depend on the processing

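AEA-562 stayed below unfed glands under every alternative at all 4 times. The fed spots of AEA-562 were not above the empty spots and most spots of AF466600 were saturated, which limits what their ratios measure. Against the main scaling, the median log2 ratio of 137 probes shifted by -0.29, -0.37, -0.40 and -0.41 at 1, 3, 24 and 48 hpf with S5 alone, and by 0.12, -0.23, 0.61 and 2.21 with each array divided by its median, which lies near the empty spots. The causes of the moves below were not tested.

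With S5 alone, AE-782 had 1.60, 1.60 and 1.86 at 1, 3 and 24 hpf, and so was at least 2-fold up at no time. AF466600 then had 1.21, 1.32 and 0.941 at 3, 24 and 48 hpf, and AEA-876 0.896, 0.491 and 0.597 at 1, 3 and 24 hpf. With the array median, AEA-562 had 0.456 at 24 hpf and 0.481 at 48 hpf, AE-782 3.95 and 2.89 at these times, AF466600 1.27, 2.69 and 5.91 at 3, 24 and 48 hpf, and AEA-876 1.28, 0.501 and 1.05 at 1, 3 and 24 hpf and 1.67, a reversal, at 48 hpf. Quantile normalization gave AEA-562 0.462 at 24 hpf, AF466600 1.23 and 1.29 at 3 and 24 hpf, and AEA-876 0.845 and 0.522 at 1 and 3 hpf. Subtraction of the local background reversed AE-782 at 1 hpf (0.595) and 24 hpf (0.799), gave it no ratio at 48 hpf, and gave AEA-562 0.173 and 0.137 at 1 and 24 hpf, AF466600 2.05 at 3 hpf and AEA-876 0.886 and 0.943 at 1 and 3 hpf. Ratios of medians moved AEA-562 to 0.658 at 1 hpf and 0.439 at 24 hpf. The series matrix moved AE-782 to 2.99 at 1 hpf and 1.67 at 48 hpf.

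Leaving out 1 array at a time gave ranges at 1, 3, 24 and 48 hpf of 0.347 to 0.619, 0.147 to 0.338, 0.225 to 0.432 and 0.0771 to 0.333 for AEA-562, 1.50 to 2.65, 1.63 to 2.81, 1.87 to 3.35 and 0.453 to 1.13 for AE-782, 1.61 to 2.26, 1.48 to 1.66, 1.61 to 1.86 and 1.14 to 1.35 for AF466600, and 0.800 to 1.55, 0.392 to 0.900, 0.475 to 1.12 and 0.228 to 0.627 for AEA-876. For AE-782 the lowest value at each time was that without replicate 3 of the fed group. Leaving out the same replicate number in both groups, which was chosen after seeing the data, moved none of the 16 ratios by more than the spread of the same-numbered arrays. It could hardly do so, since such a ratio is a weighted mean of the quotients of the arrays kept. A turn of direction was possible only for AE-782 at 48 hpf, where same-numbered arrays ran both ways. Its ratio there stayed at 0.600 to 0.942.

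Among the 8 serine protease probes, 2, 2, 1 and 0 were at least 2-fold up at 1, 3, 24 and 48 hpf. Of all 433 probes 4.85%, 12.5%, 5.77% and 3% were. The counts among the 8 were 1, 1, 0 and 0 with S5 alone and 3, 1, 5 and 4 with the array median. That scaling raised the median log2 ratio of 137 probes by 0.61 at 24 hpf and 2.21 at 48 hpf. The counts up include members chosen with their values in view. After quantile normalization the counts up were 0, 1, 1 and 0, and with the local background 2, 3, 0 and 1. At most 0.5-fold were 1, 1, 1 and 2 of the 8, where 9.24%, 8.55%, 16.9% and 21.7% of all probes were. These counts down were 2 at 3 hpf and 3 at 48 hpf for S5 alone, and 1 at 48 hpf with the array median or quantile normalization. Shares of all probes under the alternatives are not given, so that the counts under them are a description only. Without 1 array the counts up were 1 to 3, 0 to 2, 0 to 1 and 0, and those down 0 to 1, 1 to 2, 1 to 2 and 1 to 4.

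Of the 16 tests of the other serine proteases, 6 passed limma as higher with the replicate block, and 2 as higher and 1 as lower after quantile normalization, against 0 and 0 without the block. AET-6559 passed at 1 and 3 hpf with the block, and its log2 difference turned to 0.59 at 48 hpf with the array median and ran between -0.027 and 0.80 at 24 hpf without 1 array, below 0 without unfed replicate 2 or 24 hpf replicate 3. At 65000 as the saturation limit AF466600 was saturated on 1 array.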
